A study of Drosophila melanogaster with 8 samples.

Results

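The 10 genes described here encode the inducible antimicrobial peptides of the fly that are best known as products of the Imd pathway. They are the Attacin genes AttA, AttB, AttC and AttD, the Diptericin genes DptA and DptB, and the Cecropin genes CecA1, CecA2, CecB and CecC. They were chosen by gene name, and all 10 were found in both deposited tables, among 23983 entries for muscle and 17898 for whole fly. The study sequenced RNA of adult Drosophila melanogaster, either of muscle or of the whole fly, in wildtype and in mutants. The series' design text calls the mutant an anw knockout, and each of the 4 groups has 2 libraries. The groups are muscle wildtype, muscle mutant, whole fly wildtype and whole fly mutant, and no infection or other treatment is named for any of them. The nature of the anw allele, the strain, the age and the sex of the flies, and the number of flies per library, are not stated in the labels. The labels call the libraries of a group repeats and do not say whether they came from separate flies, so every p-value below measures only the spread between these libraries.

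In the Imd pathway, peptidoglycan of Gram-negative bacteria is bound by the receptors PGRP-LC at the cell surface and PGRP-LE inside the cell. The adaptors imd and Fadd, the caspase Dredd and the kinase Tak1 then lead to cleavage of the NF-kappaB factor Relish (gene Rel), which enters the nucleus and switches on antimicrobial peptide genes in fat body, gut and other epithelia. Pirk and the peptidoglycan-degrading amidases of the PGRP-LB and PGRP-SC type hold the response down, and the Toll pathway, with its own NF-kappaB factors, shares some of the target genes.

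The genes lie in a few tight clusters, given here on release 6 of the fly genome. AttA (2R:14747362-14748215) and AttB (2R:14749223-14750165) are both on the plus strand, each with 2 exons, and are separated by 1007 bp. AttC (2R:13393705-13394667, plus strand) stands apart on the same arm, and AttD (3R:17625268-17626086, plus strand) is on another chromosome. DptA (2R:18865765-18866260) has 1 exon and DptB (2R:18867391-18867895) has 2, both on the plus strand and 1130 bp apart. The 4 Cecropin genes lie within 6065 bp on 3R: CecA1 (3R:30210874-30211273) and CecA2 (3R:30212156-30212568) on the plus strand, CecB (3R:30213315-30213797) on the minus strand and CecC (3R:30216484-30216938) on the plus strand. Each Cecropin gene has 2 exons and a coding region of 189 bp, and Anp, the andropin gene, lies 491 bp before CecA1. AttA and AttB are near-identical copies, as are CecA1 and CecA2, so the division of reads within each of these pairs is uncertain.

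Values are FPKM, reads per kilobase of gene and per a fixed number of reads as scaled by the authors, and reads recovered from them are whole numbers. Summed over the listed genes, the recovered reads came to between 18580751 and 22210197 per library. The sequencing depth itself is not known from them. Across the genes tested, the 2 wildtype muscle libraries correlated at 0.973 on the log2(FPKM + 1) scale and the 2 mutant muscle libraries at 0.878, while the whole-fly pairs correlated at 0.991 in wildtype and 0.990 in mutant. In whole fly 2372 of 11419 tested genes passed the test, whereas in muscle 0 of 10079 did. The knocked-out gene could not be followed, because neither the tables nor the reference annotation pairs the name anw with an entry. For the label muscle, the summed FPKM of 12 muscle structural genes was 12108 and 16431 in wildtype and 14222 and 13490 in mutant muscle, against 3039 to 7793 in whole fly. Muscle libraries also carried RNA of other tissues. There 13 gut genes summed to between 8856 and 16595 FPKM, against 10947 to 19584 in whole fly. The sums of 8 yolk and ovary genes were between 8170 and 26228 in muscle, against 8087 to 11961 in whole fly. Those of 7 fat body genes were between 438 and 629 in muscle, against 553 to 784 in whole fly.

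By group means, the most abundant transcripts per length in wildtype whole flies came from DptA, DptB, AttC and AttA. In mutant flies DptB and AttC were ahead and AttA was among the lowest. The wildtype order was that of replicate 2. In wildtype replicate 1 AttA led at 50.1 FPKM, followed by DptB at 21.0 and DptA at 17.1. AttC was at 6.19 FPKM there, below its values of 10.3 and 22.4 in the mutant libraries. Group means in wildtype whole fly were 156 ± 196 FPKM for DptA, 128 ± 152 for DptB, 76.3 ± 99.1 for AttC and 73.9 ± 33.6 for AttA (SD, n = 2). AttB followed at 25.7 ± 20.2, CecA1 at 19.7 ± 5.94 and AttD at 15.7 ± 3.88, and CecC, CecB and CecA2 were under 2 FPKM or at 0. The ranges of mean ± SD of neighbours in this order overlapped down to AttD, so none of these steps was larger than the spread. In mutant whole fly the means were 23.0 ± 2.39 for DptB, 16.3 ± 8.56 for AttC, 8.74 ± 0.906 for CecA1, 8.33 ± 0.989 for DptA and 6.39 ± 3.22 for AttB. CecC had 3.57 ± 3.28, AttA 1.54 ± 0.713, CecB 1.13 ± 1.60 and AttD 1.11 ± 1.09. Neighbours in this order overlapped as well, although DptB and AttD, at its ends, were far apart.

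**Figure D1:**
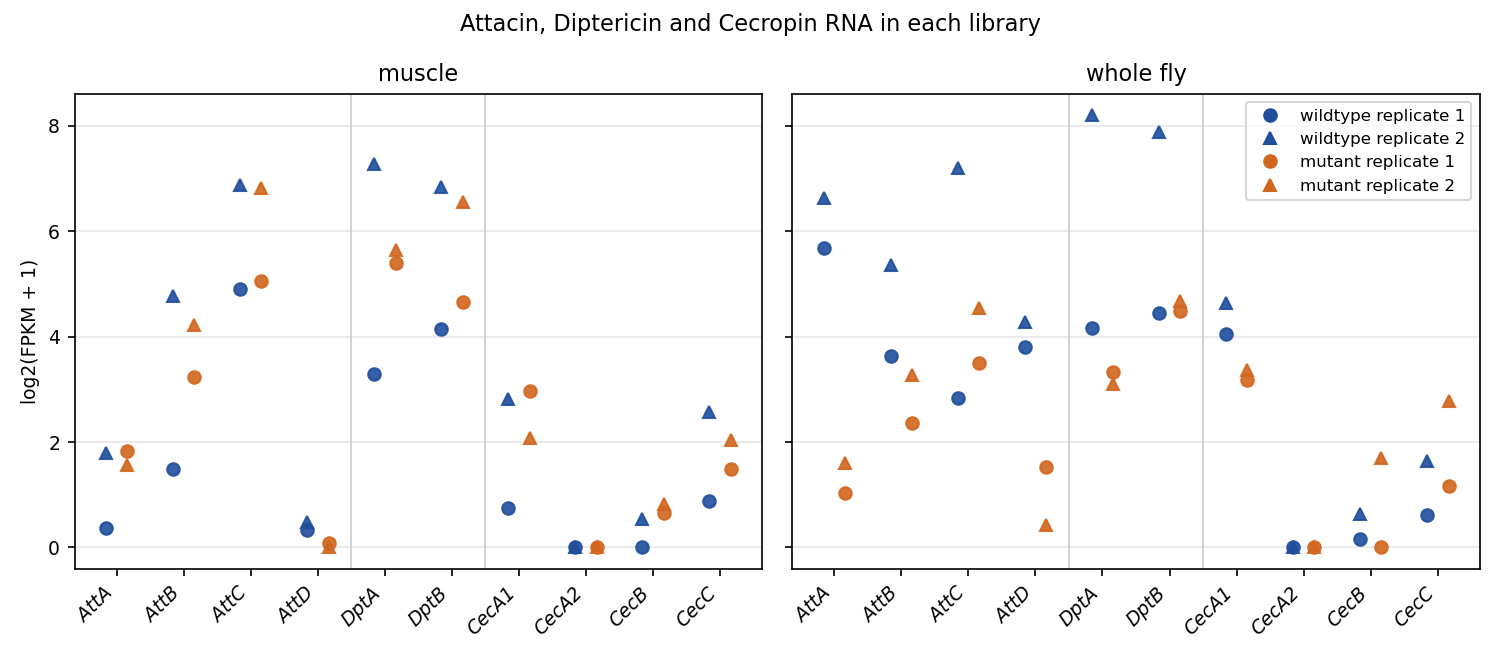
Level of the 10 genes in every library as log2(FPKM + 1), muscle on the left and whole fly on the right, wildtype in blue and mutant in orange, with replicate 1 as circles and replicate 2 as triangles. AttA and AttD in whole fly are the genes whose mutant libraries lie farthest below both wildtype libraries, while AttC and the Diptericins are spread widely between the 2 wildtype libraries.

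In muscle AttC, DptA and DptB stood highest in both genotypes. Wildtype means were 81.1 ± 102 FPKM for DptA, 72.6 ± 61.6 for AttC, 65.1 ± 68.4 for DptB and 13.997 ± 17.2 for AttB (SD, n = 2). CecA1 had 3.36 ± 3.77, CecC 2.88 ± 2.88, AttA 1.38 ± 1.53, AttD 0.323 ± 0.0999 and CecB 0.229 ± 0.324. In mutant muscle AttC had 72.5 ± 57.1 FPKM, DptB 59.1 ± 49.0, DptA 45.2 ± 5.37, AttB 13.04 ± 6.59 and CecA1 5.04 ± 2.56. CecC had 2.46 ± 0.940, AttA 2.25 ± 0.440, CecB 0.677 ± 0.136 and AttD 0.0333 ± 0.0471. Neighbours in the order did not differ beyond their spread in wildtype muscle, and in mutant muscle DptA and AttB, AttA and CecB, and CecB and AttD were the neighbours that did. The tables of the tissues were scaled separately by the authors, so levels were not tested between them.

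The Attacins, glycine-rich peptides active mainly against Gram-negative bacteria, included the clearest difference between the genotypes. In whole fly AttA was at 50.1 and 97.6 FPKM in the wildtype libraries and at 1.04 and 2.04 in the mutant libraries, from 782, 1616, 17 and 32 reads. Both mutants lay far below both wildtypes, and the means differed 48.0-fold. AttA fell by 4.83 ± 0.31 on the log2(FPKM + 1) scale (limma, adjusted p = 0.000119, 95% interval -5.57 to -4.10). In muscle AttA was low throughout, at 0.296 and 2.46 FPKM in wildtype and at 2.56 and 1.94 in mutant, and the groups overlapped.

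AttD, an Attacin predicted to lack a secretion signal, was also lower in mutant whole flies. It was at 12.97 and 18.5 FPKM in the wildtype libraries and at 1.88 and 0.3401 in the mutant libraries, from 190, 287, 29 and 5 reads. The groups did not overlap, the means differed 14.1-fold, and AttD fell by 3.07 ± 0.34 (limma, adjusted p = 0.00113, 95% interval -3.88 to -2.26). In muscle only 4 and 6 reads in wildtype and 1 and 0 in mutant came from AttD, which left it untested there.

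AttB, the copy beside AttA, was at 11.4 and 40.0 FPKM in wildtype and at 4.11 and 8.67 in mutant whole fly. Both mutants lay below both wildtypes, by 4.02-fold in the means, but the wildtypes themselves differed 3.51-fold. The difference of -1.68 ± 0.53 did not pass (limma, adjusted p = 0.0630), although limma-voom on the recovered reads called AttB (-1.98, adjusted p = 0.0293) and so 4 of the 8 genes tested. It called 2901 of all 11419 tested genes. In muscle AttB was at 1.81 and 26.2 FPKM in wildtype and at 8.37 and 17.7 in mutant, with both mutants between the 2 wildtypes.

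AttC, a more diverged secreted Attacin, was at 6.19 and 146 FPKM in wildtype and at 10.3 and 22.4 in mutant whole fly. The mutants again lay between the 2 wildtype libraries, and the difference of -1.003 ± 1.19 did not pass (limma, adjusted p = 0.571). In muscle it was at 29.1 and 116 FPKM in wildtype and at 32.1 and 113 in mutant, a nearly identical pair of ranges.

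The Diptericins are glycine-rich peptides known for specific protection, DptA against Providencia rettgeri and DptB against Acetobacter of the gut. DptA was at 17.1 and 294 FPKM in wildtype and at 9.03 and 7.63 in mutant whole fly, from 167, 3058, 93 and 75 reads. Both mutants were below both wildtypes, but wildtype replicate 1 lay much nearer to the mutants than to wildtype replicate 2, and the difference of -2.97 ± 1.07 did not pass (limma, adjusted p = 0.0930). DptB was at 21.0 and 236 FPKM in wildtype and at 21.3 and 24.7 in mutant whole fly. Wildtype replicate 1 and both mutants were at nearly the same level of DptB, and its difference of -1.59 ± 0.91 did not pass (limma, adjusted p = 0.249).

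In muscle DptA was at 8.77 and 153 FPKM in wildtype and at 41.4 and 49.0 in mutant. DptB was at 16.8 and 113 FPKM in wildtype and at 24.4 and 93.7 in mutant. Every mutant value of both Diptericins lay between the 2 wildtype values, so the groups overlapped.

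The Cecropins are short helical peptides that disrupt bacterial membranes, and CecA1 was the most abundant of them in whole fly. It was at 15.5 and 23.9 FPKM in wildtype and at 8.10 and 9.38 in mutant, from 104, 170, 57 and 63 reads. The groups did not overlap, the means differed 2.26-fold, and CecA1 fell by 1.06 ± 0.20 (limma, adjusted p = 0.00946, 95% interval -1.53 to -0.60). In muscle CecA1 was at 0.690 and 6.03 FPKM in wildtype and at 6.85 and 3.23 in mutant, with the groups overlapping.

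CecC, a Cecropin also known from metamorphosis, was the only tested gene of the 8 with a positive difference in whole fly. It was at 0.525 and 2.10 FPKM in wildtype and at 1.25 and 5.88 in mutant, where the groups overlapped and the difference of 0.85 ± 0.53 did not pass (limma, adjusted p = 0.282). In muscle CecC was at 0.848 and 4.92 FPKM in wildtype and at 1.79 and 3.12 in mutant. CecB, the minus-strand copy, had 0 to 6 reads in muscle and 1, 5, 0 and 19 reads in whole fly, in the order wildtype 1, wildtype 2, mutant 1, mutant 2, and was not tested in either tissue. CecA2 was listed at 0 in all 8 libraries, where 3 reads would have given between 0.395 and 0.463 FPKM. Since CecA1 and CecA2 are near-identical and the way shared reads were assigned is not given, the 0 of CecA2 and the values of CecA1 depend on that assignment.

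**Figure D2:**
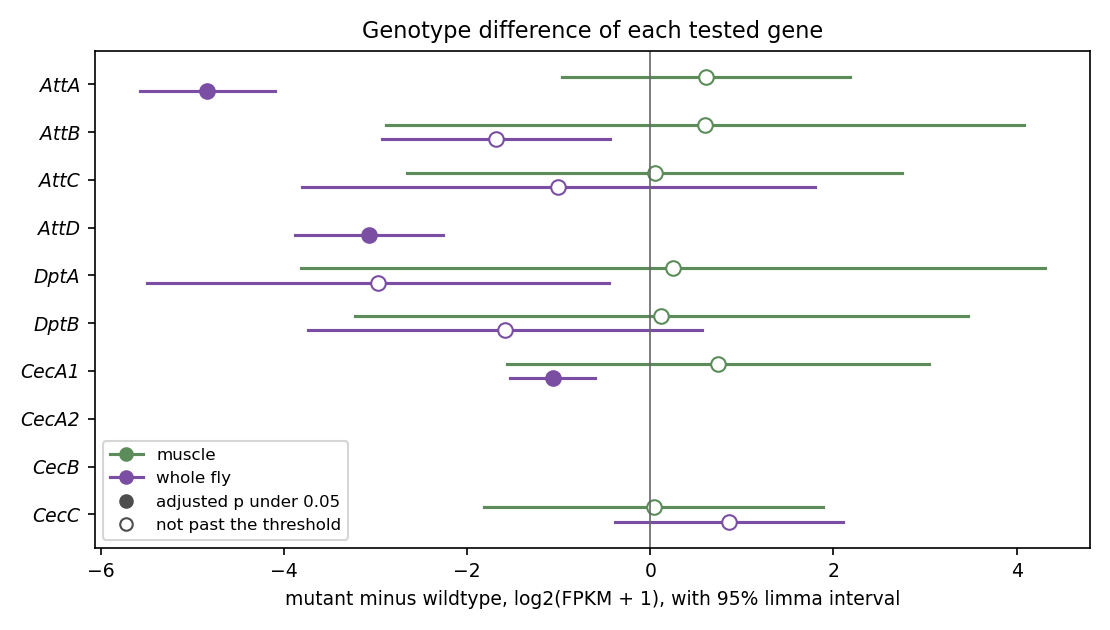
Difference between mutant and wildtype on the log2(FPKM + 1) scale for each gene that passed the filter on low values, muscle in green and whole fly in purple, with 95% limma intervals and filled points for an adjusted p under 0.05. The filled points are AttA, AttD and CecA1 in whole fly, all below 0, and every muscle interval spans 0.

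Of the 10 genes, 8 passed the filter on low values in whole fly, and 3 of them, AttA, AttD and CecA1, were lower in the mutant at an adjusted p under 0.05. Of all tested genes, 10.8% were called lower and 9.94% higher in whole fly. Both mutants lay below both wildtypes for 5 of the 8, AttA, AttB, AttD, DptA and CecA1, against 31.5% of all tested genes. The median difference of the 8 was -1.64 on the log2(FPKM + 1) scale, beside 0.02 over all tested genes, and 7 of the 8 differences were negative. Each library was also left out in turn, which leaves 1 library in a group, and that library is then assumed to vary like the pair left in the other genotype. In these fits AttA stayed between -5.31 and -4.36, AttD between -3.62 and -2.52 and CecA1 between -1.36 and -0.77, with adjusted p from limma under 0.05 each time. Which of the other genes were called changed with the library left out, and so did the share called of all tested genes. Where a wildtype library was left out, the wide difference between the wildtypes no longer entered the spread, so the small p-values of AttC, DptA and DptB in those fits leave it out. AttC and DptB turned with the library left out: without wildtype replicate 1 their differences were -3.18 (limma, adjusted p = 4.18e-06) and -3.30 (adjusted p = 1.51e-08), and without wildtype replicate 2 they were 1.18 (adjusted p = 0.0161) and 0.13 (adjusted p = 0.712). DptA was called lower without either wildtype library, at -4.99 and -0.96, AttB was called without wildtype replicate 1 (-2.54) or mutant replicate 2 (-2.14), and CecC was called higher without mutant replicate 1 (1.66, adjusted p = 0.0253).

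In muscle 7 of the 10 genes passed the filter, and limma called 0 of them, as it called 0% of all tested genes. At an unadjusted p under 0.05 the counts were 0 of the 7 and 1408 of all 10079, and limma-voom on the recovered reads called 0 genes as well. The 7 differences were all positive on the log2(FPKM + 1) scale, with a median of 0.25 beside 0.02 over all tested genes. The 2 genotypes overlapped for each of the 7. In mean FPKM the mutant was above wildtype only for AttA and CecA1. It was below wildtype for AttB, AttC, DptB, CecC and DptA, the last at 45.2 against 81.1, so their sign depends on the scale. The intervals were wide: the difference was 0.25 for DptA (95% limma interval -3.81 to 4.30), 0.12 for DptB (-3.23 to 3.47), 0.05 for AttC (-2.66 to 2.75) and 0.60 for AttB (-2.89 to 4.08). For CecA1 it was 0.74 (-1.56 to 3.05), for AttA 0.61 (-0.96 to 2.19) and for CecC 0.04 (-1.82 to 1.89). AttA averaged 1.08 on the log2(FPKM + 1) scale in wildtype muscle, so its difference there could not go below -1.08 on this scale. For DptA and AttB even large changes in either direction lie inside the interval. Each of the 7 differences changed sign when a library was left out, with the extremes for DptA at -1.74 and 2.24.

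The difference between the tissues was tested where a gene passed the filter in both, which 7 did, with 5.83% of the 9444 genes in that fit called. AttA was called: its genotype difference was lower in whole fly than in muscle, with a value of -5.45 ± 0.76 on the log2 scale (limma interaction term, adjusted p = 0.0208). With AttA near 0 in muscle, where a difference below -1.08 was not possible, this term largely carries the fall in whole fly and does not show that muscle lacks such a fall. That call was lost without any of the 4 whole-fly libraries, at adjusted p from limma of 0.0776 and 0.101 when wildtype replicate 1 or 2 was left out, and of 0.107 and 0.0541 for mutant replicate 1 or 2. The other 6 were not called, with -3.22 for DptA (adjusted p = 0.415), -2.28 for AttB (0.407), -1.80 for CecA1 (0.279), -1.71 for DptB (0.622), -1.05 for AttC (0.789) and 0.82 for CecC (0.676). AttD had too few reads in muscle to enter.

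Within the pair of neighbouring Attacins, AttA gave most of the reads in wildtype whole flies and a small part everywhere else. Of the reads of AttA and AttB together, AttA had 79.8% (exact 95% Clopper-Pearson interval 77.1 to 82.3) and 68.7% (66.8 to 70.5) in the wildtype libraries of whole fly. In the mutant whole-fly libraries it had 18.5% (11.1 to 27.9) and 17.5% (12.3 to 23.8). In muscle the share was 12.8% (4.30 to 27.4) and 7.80% (5.63 to 10.5) in wildtype, and 21.6% (15.95 to 28.1) and 8.97% (6.05 to 12.7) in mutant. The intervals cover counting error only, and the share compares reads assigned between near-identical copies. The 2 whole-fly genotypes did not overlap, at 74.2% ± 7.86 against 18.0% ± 0.701 (SD, n = 2, exact permutation test, two-sided p = 0.333, the smallest that 2 against 2 allows). Counted as a single entry to avoid that division, which was chosen after seeing the data, AttA and AttB together were lower in mutant whole flies, at -3.38 on the log2 scale (limma, adjusted p = 0.00155), and had 0.71 in muscle (adjusted p = 0.856).

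In the Diptericin pair DptA took 47.3% and 58.0% of the reads in wildtype whole fly and 31.8% and 25.4% in mutant whole fly. The genotypes did not overlap there either (exact permutation test, two-sided p = 0.333, n = 2). In muscle the share was 36.6% and 59.9% in wildtype and 65.2% and 36.6% in mutant, with the groups overlapping. The Cecropins made up 12.0% and 3.10% of the summed FPKM of the 10 genes in wildtype whole fly, and 16.4% and 21.0% in mutant whole fly.

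**Figure D3:**
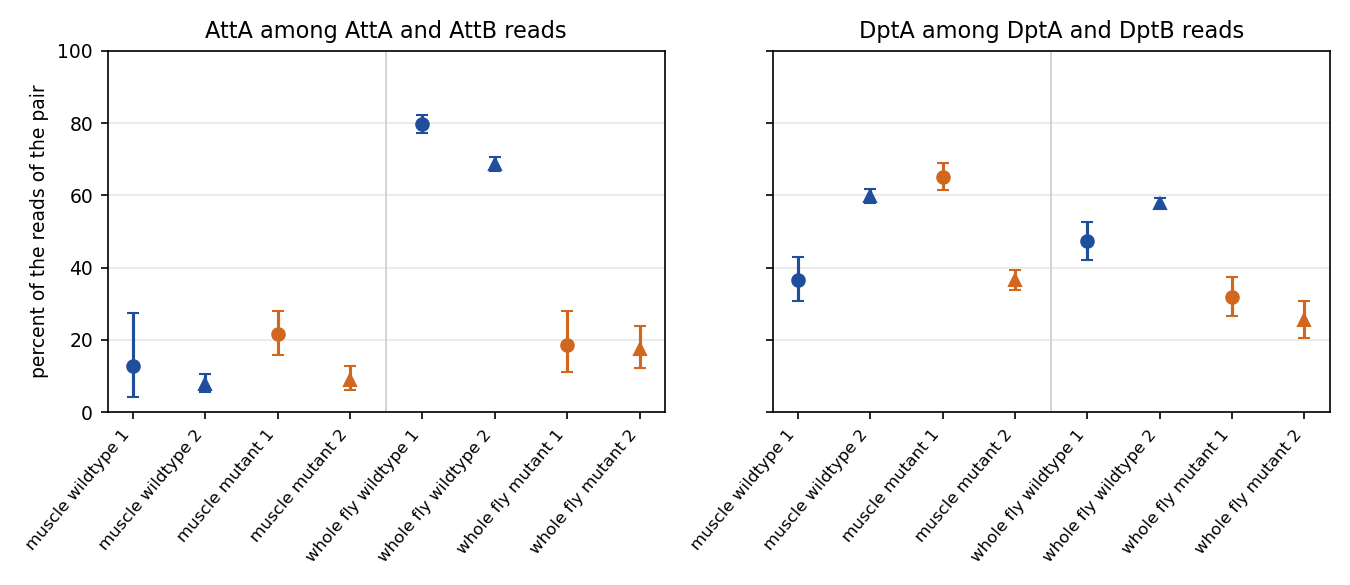
Share of reads of the first gene of each neighbouring pair, in percent of the reads of both genes, per library, wildtype in blue and mutant in orange, with circles for replicate 1, triangles for replicate 2 and exact 95% Clopper-Pearson intervals for counting error. The share of AttA is 79.8% and 68.7% in wildtype whole flies and at most 21.6% in the other 6 libraries.

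All 10 genes together gave 90.1 and 554 of every 1000000 recovered reads in wildtype whole fly and 30.3 and 50.1 in mutant whole fly. In muscle they gave 40.7 and 268 in wildtype and 79.7 and 166 in mutant. The whole-fly genotypes did not overlap (exact permutation test, two-sided p = 0.333, the smallest possible with n = 2), and those of muscle did (p = 1, exact, n = 2). The most abundant gene per length was AttC in muscle wildtype replicate 1 and mutant replicate 2, DptA in the other muscle libraries, AttA and DptA in the wildtype whole-fly libraries and DptB in both mutant ones.

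The 2 libraries labelled wildtype differed widely in these genes, in both tissues, while differing little in most other genes. In whole fly, replicate 2 over replicate 1 was 23.6-fold for AttC, 17.3-fold for DptA, 11.2-fold for DptB, 4.01-fold for CecC, 3.51-fold for AttB, 1.95-fold for AttA, 1.54-fold for CecA1 and 1.42-fold for AttD. In muscle it was 17.5-fold for DptA, 14.5-fold for AttB, 8.74-fold for CecA1, 8.32-fold for AttA, 6.76-fold for DptB, 5.79-fold for CecC and 3.998-fold for AttC. All 8 genes tested in whole fly and all 7 tested in muscle were higher in wildtype replicate 2. The size of the difference between the replicates exceeded 1 on the log2 scale for 5 of the 8 genes in whole fly, against 0.464% of all tested genes, and for all 7 in muscle, against 5.15% of all. Between the mutant libraries it exceeded 1 for 3 of 8 genes in whole fly, against 0.543% of all, and for 2 of 7 in muscle, against 12.3% of all. AttA, AttD and CecA1, the genes called in whole fly, were those with the smallest ratios between the wildtype libraries there. Even so, the size of their wildtype difference exceeded that of 99.5%, 95.5% and 97.6% of all tested genes, in that order. In limma each gene's spread is drawn towards that of other genes, in whole fly with 5.16 prior degrees of freedom. Part of the spread behind their p-values is therefore borrowed from genes most of which varied less.

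**Figure D4:**
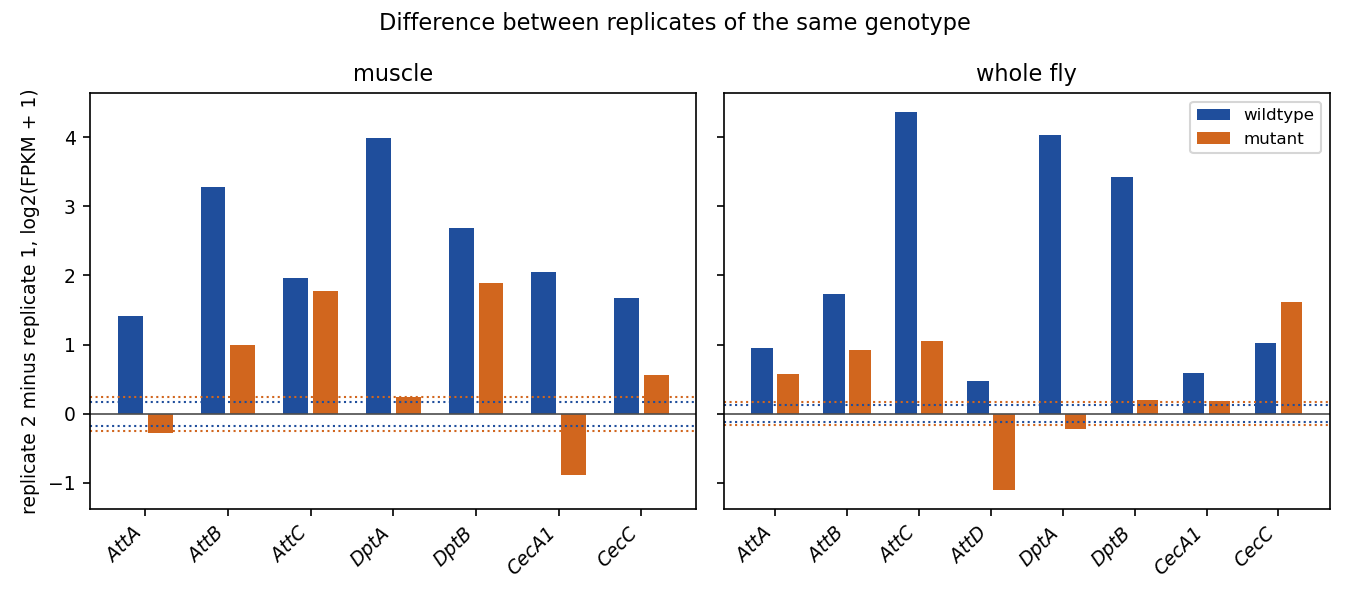
Replicate 2 minus replicate 1 on the log2(FPKM + 1) scale for each tested gene, wildtype in blue and mutant in orange, muscle on the left and whole fly on the right. Dotted lines mark the median size of this difference over all tested genes, in the colour of the genotype, and every wildtype bar lies above its line.

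Genes of Imd signalling, its negative regulators and genes of the Toll pathway differed little between the 2 wildtype libraries of whole fly. For 16 genes of Imd signalling the ratio of replicate 2 to replicate 1 ran from 0.875 to 1.11, for 13 negative regulators from 0.857 to 1.21, and for 15 genes of the Toll pathway from 0.783 to 1.21. Among other antimicrobial peptide genes, Dro (drosocin) had a ratio of 20.5 and Mtk (metchnikowin) of 16.6, close to those of AttC and the Diptericins. The rest of that list differed little: Def (defensin) had 1.23, Listericin 1.13, Anp 1.12 and Drs (drosomycin, a Toll target) 0.966. In muscle the genes of these lists varied more, from 0.677 to 1.61 in Imd signalling, with Rel at 1.61. The ratios ran from 0.317 to 3.16 among the negative regulators, with pirk at 3.16, and from 0.794 to 1.72 in the Toll pathway. For the peptides the muscle ratios were 8.01 for Dro, 5.73 for Mtk, 3.38 for Drs, 2.88 for Def and 1.47 for Listericin. Anp was at 0 FPKM in both wildtype muscle libraries.

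Of the 16 Imd signalling genes, all tested in whole fly, 2 were lower in the mutant and 0 higher, with a median of 0.04 beside 0.02 over all tested genes. That count is near the 10.8% of all tested genes called lower. The called genes were Rel, which went from 79.4 and 72.6 FPKM to 50.4 and 57.5 (-0.49 ± 0.11, limma, adjusted p = 0.0210), and Fadd, which went from 4.96 and 4.39 to 1.95 and 2.91 (-0.74 ± 0.18, adjusted p = 0.0274). Neither call held throughout: Rel had adjusted p from limma of 0.166, 0.0593 and 0.0527 when wildtype replicate 1, wildtype replicate 2 or mutant replicate 1 was left out, and Fadd 0.102 and 0.0878 without wildtype replicate 1 and mutant replicate 1. The receptors PGRP-LC and PGRP-LE and the adaptor imd were not among the called genes.

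Of 13 negative regulators 3 were lower and 1 was higher in mutant whole flies, against 10.8% and 9.94% of all tested genes. Their median was -0.14. The gene pirk, whose product holds down receptor signalling, was at 19.0 and 16.3 FPKM in wildtype and at 4.12 and 5.85 in mutant (-1.65, limma, adjusted p = 0.000763). The amidase gene PGRP-LB went from 40.9 and 37.6 FPKM to 23.2 and 19.4 (-0.86, adjusted p = 0.00318), and PGRP-SC2 from 223 and 264 to 124 and 111 (-1.04, adjusted p = 0.00131). The amidase gene PGRP-SC1a was higher in the mutant, at 128 and 94.1 FPKM against 54.6 and 66.3 (0.86, adjusted p = 0.0114), but it has a near-identical copy, PGRP-SC1b, and the division of reads between them is uncertain.

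Of 6 other antimicrobial peptide genes 3 were lower and 1 was higher in mutant whole flies, against 10.8% and 9.94% of all tested genes. Their median was -1.06. Def went from 96.1 and 118 FPKM to 46.6 and 29.5 (-1.496, limma, adjusted p = 0.00298), Drs from 272 and 263 to 133 and 152 (-0.90, adjusted p = 0.00146), and the antibacterial gene Listericin from 22.4 and 25.2 to 12.5 and 12.8 (-0.86, adjusted p = 0.00224). Anp, the male-specific andropin gene beside CecA1, was higher, at 34.0 and 33.0 FPKM against 19.8 and 22.3 (0.65, adjusted p = 0.00627), with an adjusted p of 0.0518 without wildtype replicate 1. Dro, 648 bp from AttA, was at 6.72 and 137 FPKM in wildtype and at 4.92 and 1.20 in mutant, and did not pass (-3.18, limma, adjusted p = 0.0978). Mtk was at 3.59 and 59.5 FPKM in wildtype and at 6.65 and 5.65 in mutant, and did not pass either (-1.22, adjusted p = 0.403).

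**Figure D5:**
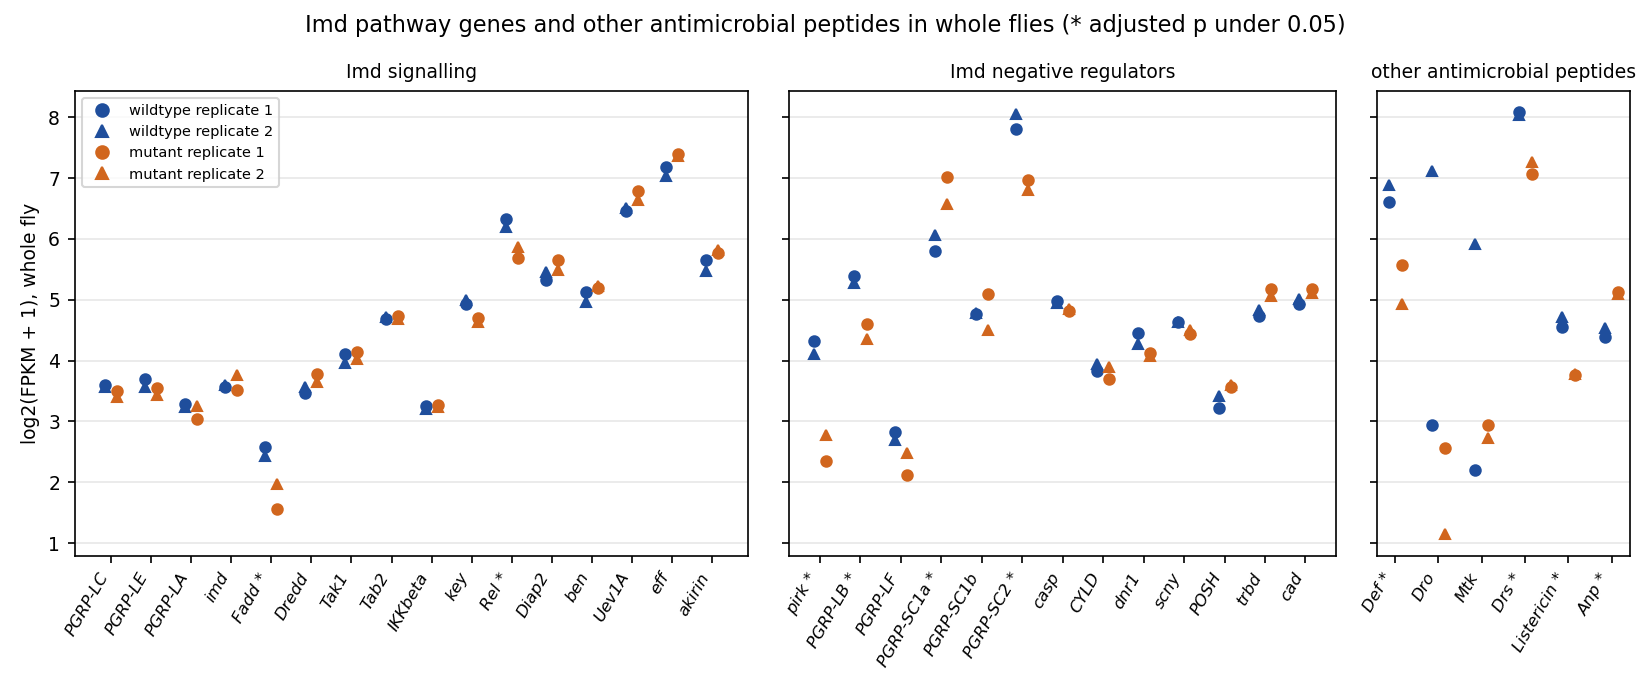
Level of every gene of the lists of Imd signalling, Imd negative regulators and other antimicrobial peptides in each whole-fly library, as log2(FPKM + 1), wildtype in blue and mutant in orange, with circles for replicate 1 and triangles for replicate 2, and an asterisk for a limma adjusted p under 0.05. The wildtype libraries lie close together for the signalling genes and regulators and far apart for Dro and Mtk. Both mutants lie below both wildtypes for the genes called lower: pirk, PGRP-LB, PGRP-SC2, Def, Drs, Listericin, Rel and Fadd. The same order is seen for key, PGRP-LC, PGRP-LE, PGRP-LF, casp, dnr1, scny and Dro, and for 31.5% of all tested genes.

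Of 15 Toll pathway genes 3 were higher and 1 was lower in mutant whole flies, against 9.94% and 10.8% of all tested genes. Their median was 0.02. The recognition genes PGRP-SD and GNBP3 went from 12.99 and 13.7 FPKM to 30.3 and 32.3 (1.17, limma, adjusted p = 0.000481) and from 21.3 and 20.8 to 35.9 and 33.8 (0.70, adjusted p = 0.00349). The protease gene SPE went from 84.1 and 79.2 FPKM to 119 and 101 (0.43, adjusted p = 0.0374), and the adaptor gene Myd88 from 19.8 and 20.1 to 15.1 and 15.4 (-0.37, adjusted p = 0.0462). The call of Myd88 was lost without any of the 4 libraries, at adjusted p from limma of 0.22, 0.225, 0.1 and 0.0544, and that of SPE without wildtype replicate 1 (0.132), wildtype replicate 2 (0.207) or mutant replicate 1 (0.0964).

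In muscle none of the 4 lists held a gene that limma called. With a spread shared over all 8 libraries GNBP3 passed (-0.66, limma, adjusted p = 0.0471), as did 251 of all 9444 genes in that fit. Medians were 0.02 for 16 Imd signalling genes, 0.07 for 13 negative regulators, -0.92 for the 5 tested of 6 other antimicrobial peptide genes and -0.30 for 15 Toll pathway genes, beside 0.02 over all tested genes. The smallest p in each list belonged to Fadd, at 3.34 and 2.26 FPKM in wildtype and at 0.977 and 0.801 in mutant (-0.995, limma, adjusted p = 0.298), CYLD (0.49, 0.289), Listericin (-0.92, 0.316) and GNBP1 (-0.72, 0.282). They were followed by Tak1 (0.42, limma, adjusted p = 0.376) and eff (-0.25, 0.410) in Imd signalling, and by PGRP-SC2 (-0.41, 0.407) and POSH (-0.14, 0.772) among the negative regulators. Among the other antimicrobial peptides Def had -1.73 (limma, adjusted p = 0.372) and Dro -2.20 (0.496), and in the Toll pathway GNBP3 and psh had -0.66 each (0.285 and 0.296). Def was at 32.2 and 92.8 FPKM in wildtype and at 22.5 and 10.98 in mutant muscle.

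Marker genes of different tissues moved in different directions in whole fly, with gut genes mostly lower and muscle genes mostly higher in the mutant. For comparison, 10.8% of all genes tested in whole fly were called lower and 9.94% higher. The summed FPKM of 7 fat body genes was 621 and 553 in wildtype and 696 and 784 in mutant, where 2 were called higher and 2 lower. That of 8 hemocyte genes was 89.0 and 76.6 in wildtype and 87.4 and 93.9 in mutant, with 1 of the 7 tested called higher. The 13 gut genes summed to 19584 and 18373 FPKM in wildtype and at to 10947 and 11217 in mutant, with 8 called lower and 2 higher, and the 12 muscle genes to 3574 and 3039 against 7793 and 7174, with 10 called higher and 0 lower. The 7 male tract genes summed to 624 and 631 against 722 and 812, with 3 called higher. The 8 female genes summed to 8108 and 8087 against 11961 and 10308, with 4 of the 7 tested called higher. None of these markers was at 0 in all libraries. In bulk RNA, fewer cells of a type and less RNA per cell cannot be told apart, and the part of tissue make-up in the lower AttA, AttD and CecA1 was not tested. In muscle the sums of male tract genes were 50.8 and 14.2 in wildtype and 96.1 and 4.01 in mutant, and those of female genes 26228 and 14208 in wildtype and 8170 and 19270 in mutant, so that libraries of the same genotype stood apart in both. The part of these differences in the spread of the peptide genes was not tested.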

How the data were processed

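Adult muscle and adult whole fly were each sampled in 2 wildtype and 2 mutant libraries. Per the labels' protocols, mRNA libraries were made with a SMARTER kit from column-purified total RNA. The authors deposited FPKM per gene in 1 table per tissue, scaled separately. For aligner, counting tool and use of strand, the record is "not given in the sources used here". A mouse build named in the submitters' processing notes was not used, since the tables hold fly genes and coordinates. Columns of the muscle table spell out the tissue. Those of the whole-fly table give genotype and repeat alone, and were assigned on the ground that the muscle table names all muscle samples. Multiplied by gene length, FPKM came out as whole reads for 100% of values, within 0.1 reads. Over the listed genes these summed to 18580751 to 22210197 reads per library. Intervals and floors cover counting error only.

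Genotypes were compared with limma 3.58.1 under R 4.3.3, moderated along a mean-variance trend, on log2(FPKM + 1), a scale that understates changes of low genes. It was fitted per tissue on entries that reached 1 FPKM in 2 or more of the 4 libraries, with Benjamini-Hochberg adjustment over all of them at 0.05. The tissue difference was the interaction term over all 8 libraries. Single shares and sums had an exact permutation test. The limma test was checked on simulated reads with a small, fixed spread between libraries. That check does not cover genes whose replicates differ as widely as these. The named genes were all 10 members, every called gene of the pathway lists, or the 3 of smallest p where a list had none, and the 5 genes most alike in pattern. The members and lists were chosen with earlier results of these data known. Alternatives were another pseudocount, no filter or a stricter filter, quantile scaling, limma-voom on recovered reads, a replicate block, a shared spread and each library left out.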

Additional observations from a re-analysis of the deposited data

Results flagged for a closer look

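The genotype difference of AttA differed between the tissues in a test of that difference, a call that was lost in 5 of 11 alternatives. It was -4.83 in whole fly and 0.61 in muscle on the log2(FPKM + 1) scale, and the interaction term of limma was -5.45 ± 0.76 (adjusted p = 0.0208, 2 libraries per group). Both mutant whole-fly libraries lay below both wildtype ones, while in muscle, where AttA had 5 to 41 reads, the genotypes overlapped. With a mean of 1.08 in wildtype muscle on this scale, a difference below -1.08 was not possible there, so the test does not show that muscle lacks a fall like that in whole fly. Over the alternatives run, the adjusted p ranged from 0.0132 to 0.107 and the value from -6.70 to -4.74.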

How the results depend on the processing

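AttA and AttD stayed lower in mutant whole flies, past the threshold, in each alternative that could test them (12 of 12 and 10 of 10). The 12 of AttA include the fit of AttA and AttB as a single entry, which does not test AttA alone. CecA1 stayed past the threshold in 10 of 11, with an adjusted p from limma of 0.407 under a spread shared over 8 libraries. The replicate numbers do not mark pairs in the labels. Same-numbered deviations correlated at 0.389 in muscle and -0.149 in whole fly. With the replicate block 8 of these genes were called in whole fly, where limma gave each gene's own spread no weight, and 2807 genes in all, against 3029 with the numbers crossed, a fit chosen after seeing the data. The shared spread left 1 of the genes called in whole fly, and leaving out libraries gave 4 to 7. Over all genes in whole fly 544 were called with the shared spread and 1409 to 3213 without a library. In muscle the counts were 2 at a minimum FPKM of 5, 2 with quantile scaling, 251 with the shared spread and 0 to 12 without a library. Calls of the tissue difference numbered 16 under the block, which ended the call of AttA (adjusted p = 0.0735) and left 0 of these genes called. They numbered 11 to 1724 without a library, with 0 or 1 of these genes called. The cause was not tested. Without a library the muscle differences ran from -0.10 to 1.32 for AttA, -1.04 to 2.24 for AttB, -0.93 to 1.03 for AttC, -0.29 to 1.77 for CecA1, -0.80 to 0.88 for CecC, -1.74 to 2.24 for DptA and -1.22 to 1.46 for DptB. In whole fly AttC ran from -3.18 to 1.18 and DptB from -3.30 to 0.13. The tissue difference ran from -3.23 to 1.13 for AttC, -3.42 to 0.0043 for DptB and -0.021 to 1.66 for CecC. Of the 14 pathway genes called in whole fly, 9 to 13 were called without a library, 11 without a filter, 12 by limma-voom and 3 with the shared spread, alternatives added after seeing the data. Low reads limit CecB, CecA2 and, in muscle, AttD.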

Other observations

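Over the 8 libraries, with values centred on the mean of each tissue, the genes most like the mean of the 7 members that passed the filter in both tissues were searched among 9437 other genes. The 5 most alike were CG17738 (r = 0.94), CG10151 (0.93), CG32756 (0.91), RNaseMRP:RNA (0.91) and KCNQ (0.89), a potassium channel gene. The first 4 had under 3 FPKM in every library, and KCNQ had between 4.77 and 8.24. These correlations are descriptions over 8 libraries of 4 groups. By the same measure Mtk had 0.86, Drs 0.80, Dro 0.79, pirk 0.73, PGRP-LB 0.68, Rel 0.62, Listericin 0.47, Def 0.46 and PGRP-SC2 0.41. Among the members themselves, whose values entered the mean, DptA had 0.98, AttB 0.97, DptB 0.95, AttC 0.87, CecA1 0.80, AttA 0.76 and CecC 0.39.

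The genes nearest to AttA were looked at after its value was seen. Of the 6 nearest tested genes in whole fly, the farthest 5122 bp away, limma called 0, with differences from -3.18 for Dro to 0.36 for ave. AttB, itself a member, is among these neighbours (-1.68). Around AttD, 6 neighbours within 45185 bp ran from -1.26 to 0.36, and limma called 0 of them. Of all tested genes in whole fly, 10.8% were called lower and 9.94% higher, so 0 calls among 6 genes say little about either neighbourhood.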
